A study of Mus musculus with 9 samples.

Results

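Kinesins are motor proteins that walk along microtubules or take microtubules apart, and 37 genes of the family were measured among 18193 genes in mouse glioma stem cells and neural stem cells. A gene belonged to the set if a probe set with exactly 1 gene symbol carried a symbol made of Kif, a number and at most a letter and a digit. Where a gene had several such probe sets, the brightest on average was used. By their textbook roles, 11 genes were grouped as mitotic kinesins, 15 as transport kinesins of axons, dendrites, vesicles and cilia, and 11 as other kinesins. Kif2a, which also works at spindles, and its relative Kif2b were placed among the other kinesins. The classes were drawn with earlier results of these data known. RNA was measured on Affymetrix Mouse Genome 430 2.0 arrays, whose probe set signals are linear intensity values in arbitrary units.

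The samples were 3 of cultured glioma stem cells (GSC), 3 of Nf1-null neural stem cells (NSC) and 3 of wild-type (WT) NSC, 1 array each. GSC were grown from optic nerve gliomas of 3-month-old mice whose genotype is given as Nf1+/-GFAP CKO, with the driver of the deletion and the number of tumours not described further. Nf1-null NSC came from the third ventricle of Nf1flox/flox pups at postnatal day 1 and were transduced with a Cre virus. WT NSC had the same source and the same floxed alleles and received a LacZ virus as control, so they are unrecombined rather than free of engineered alleles. All 3 groups carry the strain label C57BL/6 and grew in low-attachment dishes in DMEM/Neurobasal medium, with FGF and EGF each at 20 ng/ml. Brain region, age, tumour origin, Nf1 genotype and virus treatment, named in the titles of the NSC only, all change together between the glioma cells and the NSC. These cannot be told apart, and no label gives the share of NSC recombined by the Cre virus. Separate cultures are stated for the NSC but not for the GSC, so p-values measure only the spread between these samples.

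Mitotic kinesins build the spindle, move chromosomes and cut the dividing cell apart, and most are made mainly in the late part of the cell cycle, so their messages mark cycling cells. Transport kinesins carry vesicles, organelles and ciliary parts outward along microtubules in dividing and non-dividing cells alike, and some of them are known mainly from neurons. In a bulk culture a lower signal of a cell cycle gene can come from fewer dividing cells or from less RNA per cell, and these cannot be told apart here.

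Signals were compared as log2(signal + 1) in a linear model of all genes (limma), and a gene passed if its Benjamini-Hochberg adjusted p over 18193 genes was under 0.05. Of all genes, 1.82% passed between GSC and Nf1-null NSC, 9.11% between GSC and WT NSC, and 0% between Nf1-null NSC and WT NSC. Nf1, the targeted gene, had signals of 623, 600.1 and 549 in GSC, 430.3, 646 and 577 in Nf1-null NSC, against 1139.5, 919.5 and 999.9 in WT NSC. Its values in both mutant groups lay below every WT NSC array, and it passed the test in GSC over WT NSC (log2 difference -0.78 ± 0.19 (SE), adjusted p = 0.0441, limma) but not in Nf1-null NSC over WT NSC (-0.90 ± 0.19, adjusted p = 0.123). The stem cell marker Sox2 was bright on all arrays, at 28137 to 49793.5. It is 1 of 8 neural stem and progenitor markers, which were not even across the groups. In GSC 5 of 8 were lower than in WT NSC (median log2 difference -0.37), by up to -3.21. Of these 1 fell past the threshold (limma), beside 5.65% of all genes. In Nf1-null NSC 6 of 8 were lower than in WT NSC (-0.25), and 4 of 8 were lower in GSC than in Nf1-null NSC (-0.01). Summed signals of 8 microglia and blood markers lay between 516 and 1021 on every array and those of 8 endothelial and fibroblast markers between 466.5 and 815. Summed over 15 neuron markers, signals were 76791 to 77889 in GSC, 70582 to 94428 in Nf1-null cells and 72573 to 80915 in WT NSC. The ratio of 3' to 5' Actb signal, a sign of RNA quality, was 1.73 to 1.85 in GSC, 1.49 to 1.67 in Nf1-null cells and 1.87 to 1.88 in WT NSC. These Actb ranges do not overlap. The same ratio for Gapdh was 0.948 to 1.14 in GSC, 0.927 to 0.962 in Nf1-null cells and 0.954 to 1.14 in WT NSC, with overlap of all groups. The part of these ratios in the differences below was not tested.

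All 11 mitotic kinesins had higher mean log2 signals in GSC than in WT NSC, with a median log2 difference of 2.06, which is 4.18-fold. A class with Kif2a and the dim Kif2b would not be higher throughout, as their log2 differences in GSC over WT NSC were -0.08 and -0.24. The median over all genes was -0.09 in the same comparison, with 43.8% of genes above 0. Of the 11, 3 rose past the threshold (Kif23, Kif20b and Kif18a) and 0 fell, beside a background of 3.47% of all genes called higher. In 8 of them every GSC array was above every WT NSC array, which held for 13.9% of all genes. Nf1-null NSC showed the same direction, with all 11 above WT NSC, a median log2 difference of 1.66 (3.17-fold, against -0.06 for all genes) and 5 of 11 without overlap of the groups, where 9.74% of all genes were. None of the 11 passed over WT NSC in the Nf1-null cells (0 of 11 by limma after adjustment, in a comparison where 0% of all genes passed). At an unadjusted p under 0.05, 7 of the 11 were higher, beside 7.43% of all genes. Between the mutant groups the differences were small: 10 of 11 were higher in GSC than in Nf1-null NSC, the median log2 difference was 0.35 (1.27-fold, against -0.04 for all genes), 0 of 11 passed and 0 reached an unadjusted p under 0.05 by limma, which 16.5% of all genes did. Groups did not overlap for 0 of 11 there, beside 21.9% of all genes. Leaving out 1 array moved that median to 0.15 without GSC array 1, 0.11 without Nf1-null NSC array 3 and 0.66 without Nf1-null NSC array 1. The comparisons with WT NSC share the same 3 WT NSC arrays and so are not independent of each other.

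Markers of other cell types also had shifted medians between these groups. Of 8 astrocyte markers, 7 were lower in GSC than in WT NSC (median log2 difference -2.19), 5 were lower in GSC than in Nf1-null NSC (-1.45), and 8 were lower in Nf1-null NSC than in WT NSC (-0.97). Their summed signals were 98573 to 128999.7 in GSC, 108343 to 188704.5 in Nf1-null cells and 223370.4 to 276836 in WT NSC. Of 9 oligodendrocyte lineage markers, 6 were higher in GSC than in WT NSC (0.54), 8 were higher in GSC than in Nf1-null NSC (1.26), and 7 were lower in Nf1-null NSC than in WT NSC (-0.67). None of the 9 passed (0 by limma), and 4, 5 and 2 had an unadjusted p under 0.05 in these comparisons in that order. The shares of all genes were 26.4%, 16.5% and 16.8%. Their summed signals were 158173 to 207748 in GSC, 105147 to 147730.3 in Nf1-null cells and 155712 to 166491.5 in WT NSC. The part of these cell types in the kinesin differences was not tested.

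**Figure D1:**
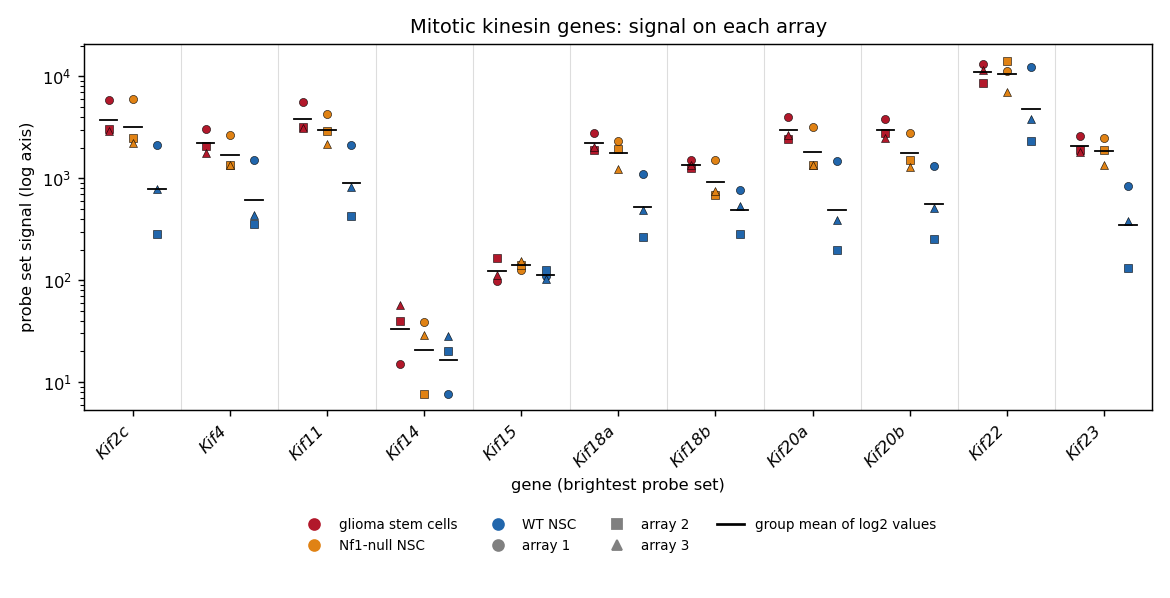
Signal of the brightest probe set of each of the 11 mitotic kinesin genes on a log axis in arbitrary units, with GSC, Nf1-null NSC and WT NSC from left to right within each gene, 1 symbol per array (circle for array 1, square for array 2, triangle for array 3) and a bar at the group mean of log2 values. WT NSC array 2 is the lowest WT NSC point for 9 of 11 genes and WT NSC array 1 the highest for 9 of 11, and for 8 of 11 all WT NSC points lie below all points of GSC.

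Among the mitotic kinesins in GSC over WT NSC, the largest log2 differences belonged to Kif20a, Kif23 and Kif20b, motors of the central spindle and of cell division. Kif23, which forms the centralspindlin complex with Racgap1 at the midzone, had signals of 2589, 1875 and 1796 in GSC, 2492, 1903 and 1351.5 in Nf1-null NSC, against 832, 133 and 379 in WT NSC. All 6 arrays of the mutant groups were above all 3 WT NSC arrays, while the mutant groups overlapped each other. Kif23 rose in GSC over WT NSC by a log2 difference of 2.56 ± 0.61 (5.91-fold, adjusted p = 0.0421, limma). In Nf1-null NSC over WT NSC the difference was 2.42 ± 0.61 (adjusted p = 0.16, limma), and in GSC over Nf1-null NSC it was 0.15 ± 0.61 with a 95% interval of -1.27 to 1.56. That interval spans lower as well as higher levels, so the mutant groups were not resolved from each other for this gene.

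Kif20b, a motor needed for the last cut between daughter cells, had signals of 3826, 2764 and 2491.5 in GSC, 2795, 1527 and 1281 in Nf1-null NSC, against 1317, 256 and 506 in WT NSC. Every GSC array was above the WT NSC arrays, whereas Nf1-null NSC array 3 lay just under WT NSC array 1. Its log2 difference in GSC over WT NSC was 2.42 ± 0.58 (5.35-fold, adjusted p = 0.0436, limma), against 0.76 ± 0.58 over Nf1-null NSC (adjusted p = 0.572, 95% interval -0.60 to 2.11). Kif20a, which carries the chromosomal passenger complex to the midzone, had signals of 3981, 2443.5 and 2630.4 in GSC, 3160.4, 1349 and 1346 in Nf1-null NSC, against 1487, 198 and 393 in WT NSC. All its GSC arrays were above WT NSC, while Nf1-null NSC arrays 2 and 3 lay under WT NSC array 1. It had a log2 difference of 2.59 ± 0.71 over WT NSC, which missed the threshold (adjusted p = 0.064, limma). Kif14, which works with citron kinase in cytokinesis, was among the dimmest 25% of genes, with signals of 7.7 to 57.5 over the 9 arrays and overlap of all groups. Its level was not resolved, as the log2 difference over WT NSC was 0.95 with a wide 95% interval of -0.79 to 2.68.

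Among the motors that set up the bipolar spindle and align chromosomes, Kif18a passed the test. Kif18a, which dampens the swinging of aligned chromosomes, had signals of 2793, 1896.5 and 2015.5 in GSC, 2328, 1919 and 1235 in Nf1-null NSC, against 1109.9, 265 and 494 in WT NSC. Both mutant groups were above WT NSC without overlap, and the GSC rose over WT NSC by 2.06 ± 0.51 on the log2 scale (4.18-fold, adjusted p = 0.0461, limma). In Nf1-null NSC the log2 difference from WT NSC was 1.75 ± 0.51 (adjusted p = 0.184, limma), and between the mutant groups it was 0.32 ± 0.51. Kif11, the motor that pushes spindle poles apart and the target of antimitotic drugs, had signals of 5547, 3218 and 3090.3 in GSC, 4299, 2888 and 2164 in Nf1-null NSC, against 2098, 423 and 819.9 in WT NSC. No mutant array was as low as the highest WT NSC array, although Nf1-null NSC array 3 came within a small margin of WT NSC array 1. Its log2 differences were 2.08 ± 0.58 in GSC over WT NSC (adjusted p = 0.0648, limma) and 1.73 ± 0.58 in Nf1-null NSC over WT NSC (adjusted p = 0.208, limma), and neither passed.

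Kif2c, which removes wrongly attached microtubules from kinetochores, had signals of 5811, 3069.5 and 2903 in GSC, 5951, 2488 and 2233 in Nf1-null NSC, against 2143, 284 and 792 in WT NSC. The WT NSC arrays lay far apart, but every mutant array was above them. The log2 differences of 2.25 ± 0.74 in GSC over WT NSC (adjusted p = 0.101, limma) and 2.03 ± 0.74 in Nf1-null NSC over WT NSC did not pass. The chromosome-borne motor Kif4 and Kif18b, which shortens astral microtubules, also had all GSC arrays above all WT NSC arrays. Their log2 differences over WT NSC were 1.85 ± 0.56 (adjusted p = 0.0825, limma) and 1.47 ± 0.42 (adjusted p = 0.0716, limma). For Kif18b the Nf1-null NSC signals were 1526, 681 and 742.5, with arrays 2 and 3 under WT NSC array 1 at 770.5. Kif22, which pushes chromosome arms away from the poles, overlapped between GSC and WT NSC because WT NSC array 1 read 12246, beside 2298 and 3851 on the other WT NSC arrays. The other 2 probe sets of Kif22 did not overlap between these groups and gave log2 differences of 2.31 and 1.68, against 1.20 ± 0.59 for the brightest. Kif15, which helps to keep the spindle bipolar, had signals that stayed within 99.0 to 166 on all arrays, with a log2 difference of 0.13 ± 0.22 over WT NSC.

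The 3 calls depended on which arrays entered the model. Without any 1 of the 3 GSC arrays, of the 3 Nf1-null NSC arrays, or of WT NSC arrays 2 and 3, 0 of 11 mitotic kinesins passed over WT NSC, and without WT NSC array 1, 8 did. Calls over all 18193 genes ranged from 239 to 1774 on leaving out 1 array. A variance prior that follows brightness also gave 8 calls, while calls over all genes went from 1658 to 2700. The replicate number as a block gave 8 mitotic calls, the 6 arrays of the compared groups alone 0 and an ordinary linear model 0. Calls over all genes are not set beside each of these counts, so the counts alone do not set the mitotic kinesins apart from other genes. The median log2 difference of the class stayed positive in all 23 alternatives, between 1.49 and 2.60 over WT NSC in GSC and between 1.11 and 2.29 in Nf1-null NSC.

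Promoter sequence did not enter the choice of genes, but the classes followed textbook roles. Match counts by class are therefore not independent of how the classes were made. Cell cycle genes of this kind are known to carry a cell cycle homology region (CHR), a short element near the start of transcription bound by the DREAM and MuvB complexes, often with CCAAT boxes upstream that bind NF-Y. RefSeq windows of 300 bases, 250 before and 50 after the annotated start (build GRCm38.p6), were at hand for 31 of the 37 kinesins. They were searched on both strands for the CHR hexamer TTTGAA and, separately, for CCAAT, whose matches can share at most 1 end letter. The stretch of 100 bases around the start, 70 before and 30 after, is shown for the 3 mitotic kinesins that passed the test, for Kif11 and Kif4 of the same class, and for Kif3c and Kif21a, the transport kinesins that passed over WT NSC. Capitals mark the hexamer (TTTGAA, or TTCAAA where it lies on the other strand) and the CCAAT box (ATTGG on the other strand). In the order of the lines the stretches are chr9:61946770-61946869 on the minus strand, chr19:34922288-34922387 on the plus strand, chr2:109280668-109280767 on the plus strand, chr19:37376312-37376411 on the plus strand, chrX:100625995-100626094 on the plus strand, chr12:3365062-3365161 on the plus strand and chr15:91049922-91050021 on the minus strand. All are written 5′ to 3′ along the gene.
Kif23: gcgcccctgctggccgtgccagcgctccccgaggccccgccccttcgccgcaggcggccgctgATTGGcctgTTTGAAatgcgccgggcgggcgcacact
Kif20b: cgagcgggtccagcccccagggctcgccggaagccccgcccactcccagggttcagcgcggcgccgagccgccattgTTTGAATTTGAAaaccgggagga
Kif18a: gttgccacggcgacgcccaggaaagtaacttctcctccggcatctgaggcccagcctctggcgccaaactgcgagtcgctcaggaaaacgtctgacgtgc
Kif11: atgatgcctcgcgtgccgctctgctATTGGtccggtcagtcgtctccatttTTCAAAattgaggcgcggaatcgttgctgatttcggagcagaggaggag
Kif4: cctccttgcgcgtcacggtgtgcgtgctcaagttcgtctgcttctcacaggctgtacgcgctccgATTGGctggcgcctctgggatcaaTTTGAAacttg
Kif3c: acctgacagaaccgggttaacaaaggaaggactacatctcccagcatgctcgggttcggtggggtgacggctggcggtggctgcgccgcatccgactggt
Kif21a: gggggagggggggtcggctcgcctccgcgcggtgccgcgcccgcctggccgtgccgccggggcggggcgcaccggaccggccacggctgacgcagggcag

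The hexamer was in the windows of 9 of 10 mitotic kinesins (90.0%), 1 of 11 transport kinesins (9.1%) and 2 of 10 other kinesins (20.0%), beside 20.2% of 27025 genes with windows. Within the 100 bases around the start it was in 7 of 10, 1 of 11 and 1 of 10, beside 5.9% of all genes. The windows of Kif2a and Kif2b, counted among the other kinesins, did not hold the hexamer. Kif20b carries adjacent copies of it just after its start, and Kif23 and Kif4 each have it close downstream of a CCAAT box. Kif18a, which passed the test, held neither motif in its window, so the letters searched were not shared by every gene of the class that moved. CCAAT was less selective, in 6 of 10 mitotic kinesins (60.0%), 3 of 11 transport kinesins (27.3%) and 41.1% of all genes. Partners of the mitotic motors at the spindle and midzone held the hexamer in 20 of 27 windows (74.1%), and cargo adaptors and dynein subunits in 3 of 26 (11.5%). These matches describe the letters only. No binding was measured here.

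**Figure D2:**
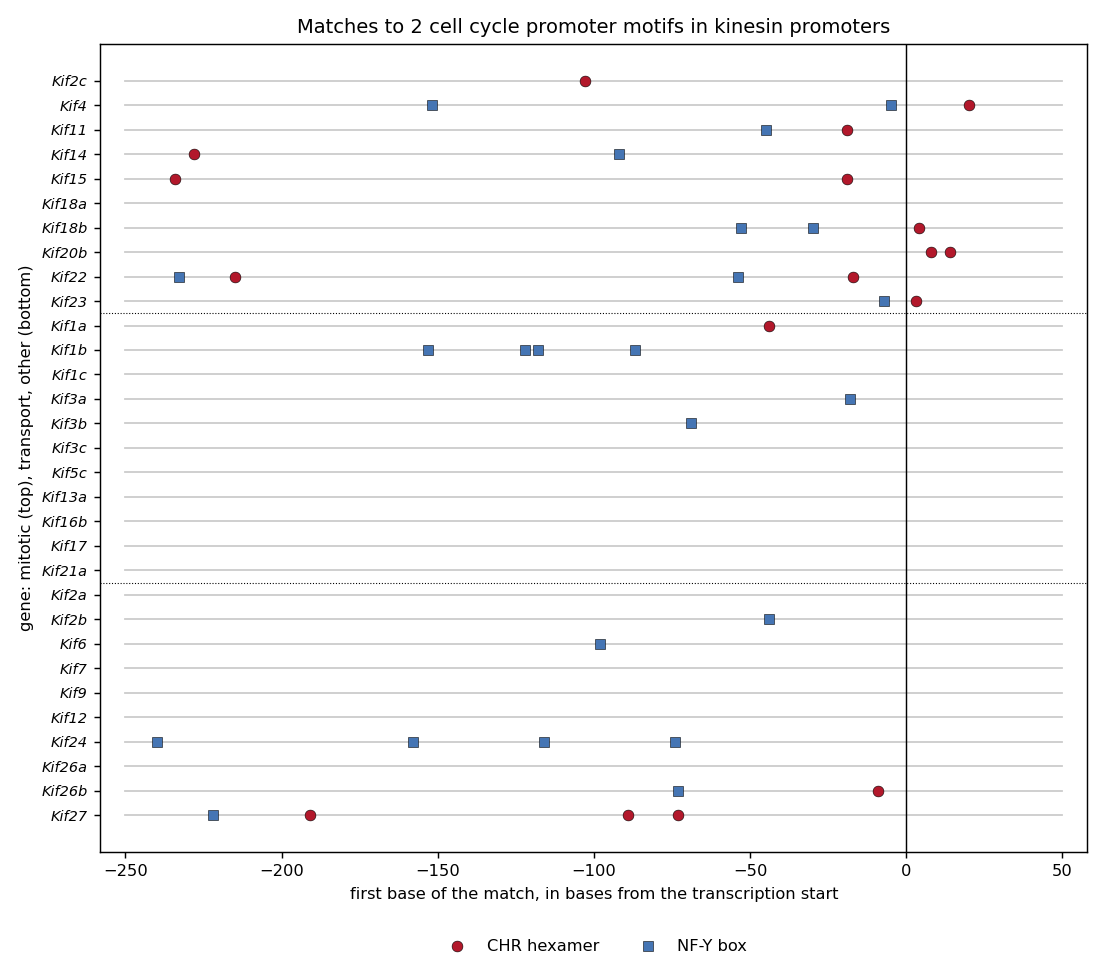
Positions of the CHR hexamer and of the NF-Y box in the RefSeq promoter windows of 31 kinesin genes, given by the first base of each match in bases from the annotated start at 0, with genes grouped by class down the page and the searched window running 250 bases before to 50 bases after the start. Kif1b has windows for several starts, so its boxes are drawn for each of them. The hexamer lies near the start in 7 of 10 mitotic kinesins and in 1 of 11 transport kinesins.

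The mitotic kinesins tended to be high or low on the same arrays, also within groups. Array 1 gave the highest signal of its group for 9 of 11 mitotic kinesins in the GSC, for 9 of 11 in Nf1-null NSC and for 9 of 11 in WT NSC, while WT NSC array 2 was the lowest of its group for 9 of 11. Set against the WT NSC mean of each gene, the class median was 2.41, 1.84 and 1.78 on the log2 scale on GSC arrays 1 to 3, 2.14, 1.47 and 1.21 on Nf1-null NSC arrays 1 to 3, and 1.25, -1.05 and -0.13 on WT NSC arrays 1 to 3. WT NSC array 1 was thus at about the level of Nf1-null NSC array 3, and the spread inside the WT NSC group was wider than the distance between the mutant groups. The labels do not say what an array number stands for, and what set the level of array 1 was not tested. Between NSC arrays with equal numbers, 9 of 11 mitotic kinesins were higher in Nf1-null NSC in all 3 pairs, beside 20.9% of all genes, with class medians of 1.07, 2.63 and 1.34. Kif14 and Kif22 were the exceptions. With the replicate number as a block in a fit limited to the 9097 brighter genes, an alternative added after the data were seen, 7 of the 9 mitotic kinesins tested passed in Nf1-null NSC over WT NSC. That fit called 1083 of the 9097 genes, and the block over all genes left 0 mitotic kinesins.

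**Figure D3:**
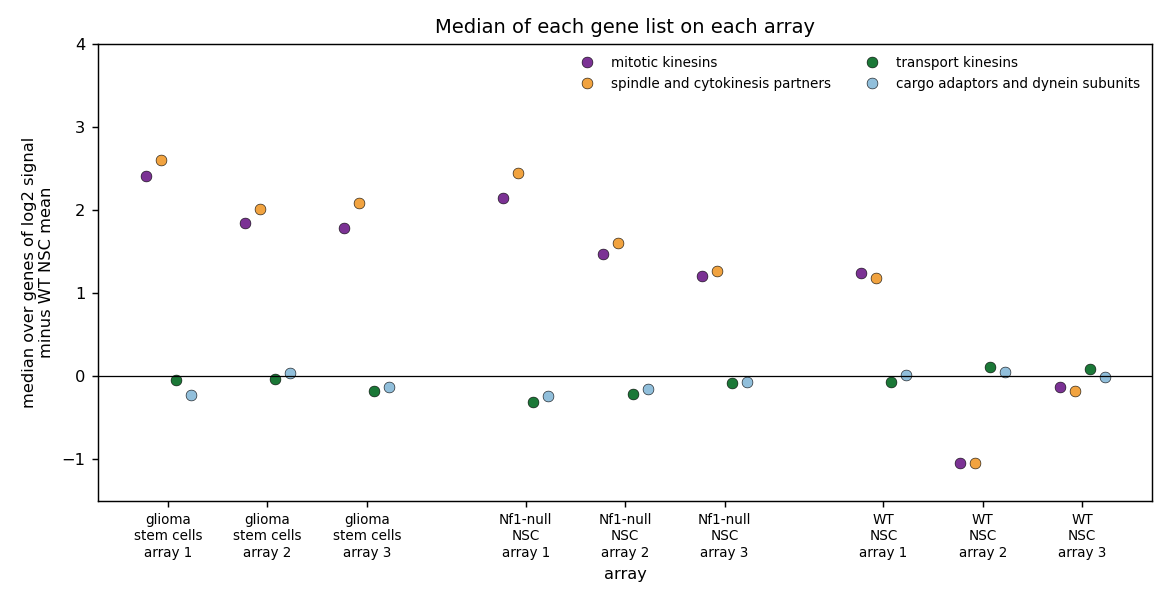
Median over the genes of a list of the log2 signal minus the WT NSC mean of the same gene, for each of the 9 arrays, with GSC, Nf1-null NSC and WT NSC from left to right. Mitotic kinesins and their spindle and cytokinesis partners reach 2.41 and 2.61 on GSC array 1 and are both lowest, at -1.05, on WT NSC array 2, while transport kinesins and cargo adaptors stay between -0.32 and 0.11.

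Proteins that work with the mitotic motors lay in the same direction. Of 31 spindle and cytokinesis partners, 30 were higher in GSC than in WT NSC, 10 rose past the threshold and 0 fell, beside 3.47% of all genes called higher, and the median log2 difference was 2.21 (4.61-fold). All 31 were without overlap of the groups, 30 higher, beside 13.9% of all genes, and Ckap5, a microtubule polymerase, lower, beside 21%. The smallest p-values belonged to the checkpoint protein Mad2l1 (2.60 ± 0.48, adjusted p = 0.0226, limma), the kinetochore subunit Spc25 (2.61 ± 0.51, adjusted p = 0.0264), the midzone bundler Prc1 (2.14 ± 0.43, adjusted p = 0.0278) and the topoisomerase Top2a (2.43 ± 0.53, adjusted p = 0.0343). Prc1, which recruits Kif4 to the midzone, had signals of 7300.4, 5300.4 and 5764 in GSC, 5528, 3911.5 and 2956 in Nf1-null NSC, against 2692, 957 and 1018 in WT NSC. The proliferation marker Mki67 had a log2 difference of 2.81 ± 0.77, which did not pass (adjusted p = 0.0642, limma). For the NSC groups, 30 of 31 partners were higher in Nf1-null NSC with a median of 1.80 (3.49-fold), 29 of 31 at an unadjusted p under 0.05, beside 16.8% of all genes, and 0 of 31 after adjustment (limma). Between the mutant groups 30 of 31 were higher in GSC, with a median of 0.47 and 0 of 31 past the threshold. Among kinesins outside the name pattern, the kinetochore motor Cenpe rose in GSC over WT NSC (2.97 ± 0.73, adjusted p = 0.0465, limma). The minus-end motor Kifc1, which focuses spindle poles, had a log2 difference of 1.67 ± 0.43 that missed the threshold (adjusted p = 0.0525, limma), and its near copy Kifc5b may share probe signal with it.

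Transport kinesins had smaller class medians and few calls. Their median log2 difference was 0.09 in GSC over Nf1-null NSC, -0.05 in GSC over WT NSC and -0.24 in Nf1-null NSC over WT NSC. In the same order 9, 6 and 2 of 15 were higher, beside 46.8%, 43.8% and 44.5% of all genes, so that 13 of 15 were lower in Nf1-null NSC than in WT NSC. The last 2 medians turn positive with another choice of probe set: 0.18 in GSC over WT NSC when each gene's probe sets were averaged, and 0.06 in Nf1-null NSC over WT NSC when its second brightest probe set was used. In GSC over Nf1-null NSC, 1 of 15 rose (Kif5a) and 0 fell, beside 0.704% and 1.12% of all genes. Over WT NSC, 1 of 15 rose (Kif3c) and 1 fell (Kif21a), beside 3.47% and 5.65% of all genes. Between the NSC groups 0 of 15 passed after adjustment and 4 had an unadjusted p under 0.05 (limma), beside 16.8% of all genes. Without overlap of the groups, 2 of 15 were higher and 2 lower in GSC over Nf1-null NSC, beside 9.23% and 12.7% of all genes. Over WT NSC it was 2 higher and 4 lower in GSC, beside 13.9% and 21% of all genes, and 1 higher and 3 lower in Nf1-null NSC, beside 9.74% and 14.1%. The counts in all, 4, 6 and 4 of 15, lay near the 21.9%, 34.9% and 23.8% of all genes.

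**Figure D4:**
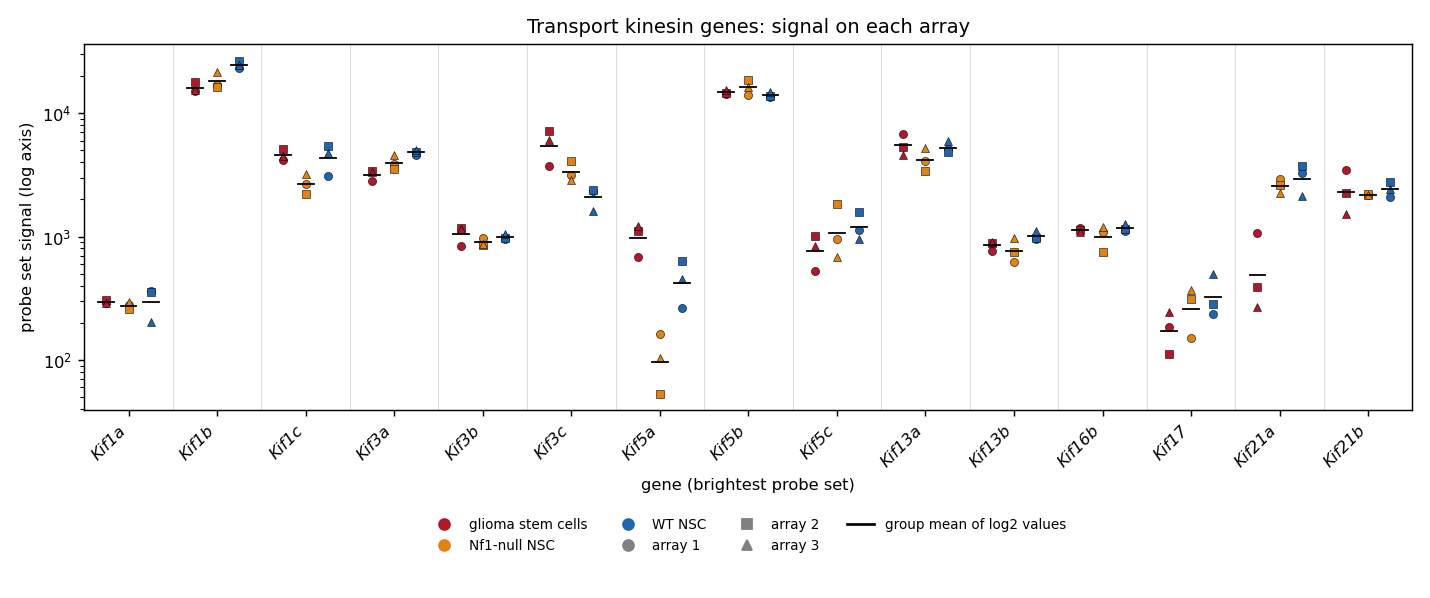
Signal of the brightest probe set of each of the 15 transport kinesin genes on a log axis in arbitrary units, drawn as for the mitotic genes. Kif5a is lowest in Nf1-null NSC, Kif3c is highest in GSC and Kif21a is lowest in GSC, while most of the other genes lie at close levels in the 3 groups.

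The heavy chains of conventional kinesin, which carry mitochondria, vesicles and neurofilaments, split among themselves. Kif5a, the chain known mainly from neurons, had signals of 678, 1100.2 and 1216 in GSC, 161, 53.2 and 103 in Nf1-null NSC, against 264, 635 and 452 in WT NSC. The groups did not overlap in any pairing, with GSC on top, WT NSC between and Nf1-null NSC lowest. Kif5a rose in GSC over Nf1-null NSC by 3.32 ± 0.48 on the log2 scale (9.99-fold, adjusted p = 0.0255, limma), the largest difference of any kinesin in the 3 comparisons. Over WT NSC the differences were 1.19 ± 0.48 in GSC (adjusted p = 0.165, limma) and -2.13 ± 0.48 in Nf1-null NSC (adjusted p = 0.137, limma), and neither passed. The Kif5a call had an adjusted p of 0.0652 with the replicate number as a block, 0.0754 with the 6 compared arrays alone, and was lost without GSC array 2 or 3 or Nf1-null NSC array 2 or 3, with a range over all alternatives of 0.00343 to 0.937. It rests on a single probe set, since the other 2 were dimmer, overlapped between the groups and gave log2 differences of 0.15 and -0.95. Kif5b, the chain found in most cells, was at 14407, 14488.5 and 15522 in GSC, 13947.5, 18617 and 16358.5 in Nf1-null NSC, against 13504, 13684 and 14979 in WT NSC. This brightest probe set stayed within a narrow band, and the 95% interval of its log2 difference in GSC over Nf1-null NSC was -0.49 to 0.23. Other Kif5b probe sets disagree, with log2 differences in GSC over WT NSC from -0.63 to 1.00, both ends without overlap. Kif5c, another chain of neurons, overlapped in all comparisons, with log2 differences of -0.47 ± 0.42 in GSC over Nf1-null NSC and -0.65 ± 0.42 over WT NSC.

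Markers of neurons were mixed in the comparison that called Kif5a. Of 15 neuron markers, 2 rose in GSC over Nf1-null NSC and 0 fell, beside 0.704% and 1.12% of all genes. The 2 were Tubb3, a neuronal tubulin (2.13 ± 0.34, adjusted p = 0.0336, limma), and Mapt, the microtubule-binding protein tau (1.68 ± 0.32, adjusted p = 0.0479). In the same comparison 6 of 15 were lower, by up to -1.55 on the log2 scale. Without overlap of the groups 4 were higher and 4 lower, beside 9.23% and 12.7% of all genes. Over WT NSC, Gap43 and Elavl4 rose while Snap25, Rbfox3 and Ncam1 fell, beside 3.47% and 5.65% of all genes. The neuron marker Stmn2 was dim throughout, at 22.1 to 106. The summed neuron marker ranges given above overlap between GSC and both NSC groups, but Map2 alone makes up 31879 to 55848 of each sum. The median over the 15 neuron markers of log2 signal minus the WT NSC mean was -0.23, 0.52 and 0.51 on GSC arrays 1 to 3, -0.24, -0.30 and -0.27 on Nf1-null NSC arrays 1 to 3, against -0.01, 0.01 and -0.03 on WT NSC arrays 1 to 3. Arrays 2 and 3 of the GSC, the highest for Kif5a, were thus also the highest for this median, and the part of neuronal cells in the Kif5a difference was not tested.

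Within the heterotrimeric kinesin of cilia and axons, whose motor subunits are Kif3a with Kif3b or Kif3c, the subunits did not share a direction. Kif3c, the partner of Kif3a known from neurons, had signals of 3737, 7133 and 6109 in GSC, 3159, 4059 and 2889 in Nf1-null NSC, against 2344, 2388 and 1621 in WT NSC. GSC were above WT NSC on every array, Nf1-null NSC were also all above WT NSC, and the mutant groups overlapped. Kif3c rose in GSC over WT NSC by 1.39 ± 0.29 on the log2 scale (2.62-fold, adjusted p = 0.0309, limma), with 0.68 ± 0.29 in Nf1-null NSC over WT NSC (adjusted p = 0.298, limma). A second probe set gave 1.59 and 0.54 for the same comparisons. In GSC over Nf1-null NSC that second set gave 1.05 without overlap of the groups, against 0.71 for the brightest. Kif3a had signals of 2831, 3413 and 3313 in GSC, 3865, 3546 and 4543 in Nf1-null NSC, against 4568, 4866 and 5009 in WT NSC, so that the groups followed each other without overlap, lowest in GSC. Its log2 difference in GSC over WT NSC was -0.60 ± 0.16, just short of the threshold (adjusted p = 0.0543, limma), and 0.01 with its second brightest probe set. Further Kif3a probe sets gave -0.61 and -0.42, both without overlap. The order of the mutant groups without overlap held for the brightest probe set only. In GSC over Nf1-null NSC the second brightest was higher without overlap (0.14), and the further sets gave 0.05 and -0.04 with overlap. Kif3b lay at 839 to 1165 on all arrays, with log2 differences of 0.21 in GSC over Nf1-null NSC and 0.06 over WT NSC. Another Kif3b probe set gave 0.71 and 0.67 for these comparisons, both without overlap. Kifap3, the subunit that joins cargo to these motors, had log2 differences of 0.54 ± 0.19 in GSC over Nf1-null NSC (adjusted p = 0.204, limma) and -0.52 ± 0.19 in Nf1-null NSC over WT NSC (adjusted p = 0.231).

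Kif21a, a motor that slows microtubule growth at the cell cortex and is mutated in a human disorder of eye movement, was the transport kinesin with the largest fall. Its signals were 1076.5, 388 and 271 in GSC, 2927.5, 2614 and 2244 in Nf1-null NSC, against 3256, 3721 and 2112 in WT NSC. All 3 GSC arrays were below all NSC arrays, and the NSC groups overlapped. Kif21a fell in GSC to a level 6.08-fold below WT NSC (log2 difference -2.60 ± 0.49, adjusted p = 0.024, limma). Against Nf1-null NSC the log2 difference was -2.41 ± 0.49, which missed the threshold (adjusted p = 0.0607, limma) and passed in 8 of the 23 alternatives, with adjusted p over all of them from 0.00674 to 0.208. Between the NSC groups it was -0.19 ± 0.49, with a 95% interval of -1.33 to 0.94. The next brightest probe set gave -2.98 over WT NSC and -2.70 over Nf1-null NSC, without overlap in both. Its relative Kif21b, known from dendrites, overlapped in all comparisons and varied within the GSC, at 3479, 2250.1 and 1526, more than between groups. Astrocyte markers also fell in GSC over WT NSC, 4 of 8 past the threshold, beside 5.65% of all genes. Over Nf1-null NSC 3 of 8 fell, beside 1.12%. In the same order 1 and 3 of the 8 were higher, by up to 1.95 and 2.46 on the log2 scale, 1 of them without overlap in each comparison. The part of astrocyte markers in the Kif21a difference was not tested.

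The calls of Kif3c and Kif21a over WT NSC were both lost when GSC array 2 or 3 or any 1 WT NSC array was left out. Without those arrays the adjusted p was at most 0.104 for Kif3c and 0.0881 for Kif21a, and with the 6 compared arrays alone it was 0.0628 and 0.059 in that order (limma). Over all alternatives the adjusted p ranged from 0.00519 to 0.104 for Kif3c and from 0.00246 to 0.0881 for Kif21a, and neither changed sign.

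Vesicle motors related to Kif1a showed smaller shifts. Kif1b, which moves mitochondria and synaptic vesicle parts, had signals of 15263, 17730.5 and 15407 in GSC, 16786, 16446 and 21404 in Nf1-null NSC, against 23373, 26664 and 24369 in WT NSC. Both mutant groups were below WT NSC on every array, yet the log2 differences of -0.62 ± 0.16 in GSC (adjusted p = 0.0542, limma) and -0.45 ± 0.16 in Nf1-null NSC (adjusted p = 0.23, limma) did not pass. Its 7 probe sets disagree, with log2 differences in GSC over WT NSC between -0.62 and 1.31. Kif1c, a carrier of dense-core vesicles and integrins, had signals of 4187, 5164 and 4489 in GSC, 2648, 2219 and 3189.7 in Nf1-null NSC, against 3117, 5403 and 4760.5 in WT NSC. GSC were above Nf1-null NSC without overlap, at a log2 difference of 0.79 ± 0.25 that did not pass (adjusted p = 0.169, limma), and they lay within the range of WT NSC. Kif1a, the synaptic vesicle motor, stayed at 202.5 to 359. Kif13a, which moves recycling endosomes, lay at 3398 to 6752, its relative Kif13b at 620.4 to 1118, and the early endosome motor Kif16b at 756 to 1264. GSC signals of Kif13b were all below WT NSC, by -0.26 ± 0.20 on the log2 scale, while a dimmer probe set was above WT NSC without overlap (0.55). Dimmer Kif13a sets gave 0.57 and 0.64 in GSC over WT NSC without overlap, and 0.20 and -0.12 with overlap. In GSC over Nf1-null NSC they gave 0.44 to 0.71. A dimmer Kif16b set was lower in GSC without overlap, by -0.38 over WT NSC and -0.43 over Nf1-null NSC. Kif17, a dendritic carrier of glutamate receptor cargo, was lower in mean in both mutant groups than in WT NSC with overlap in both, at -0.90 ± 0.46 in GSC and -0.32 ± 0.46 in Nf1-null NSC. These motors thus gave no call in any of the 3 comparisons. In the same-numbered NSC pairs, 2 transport kinesins (Kif3c and Kif5b) were higher in Nf1-null NSC in all 3 pairs and 7 were lower, beside 20.9% and 27.8% of all genes.

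**Figure D5:**
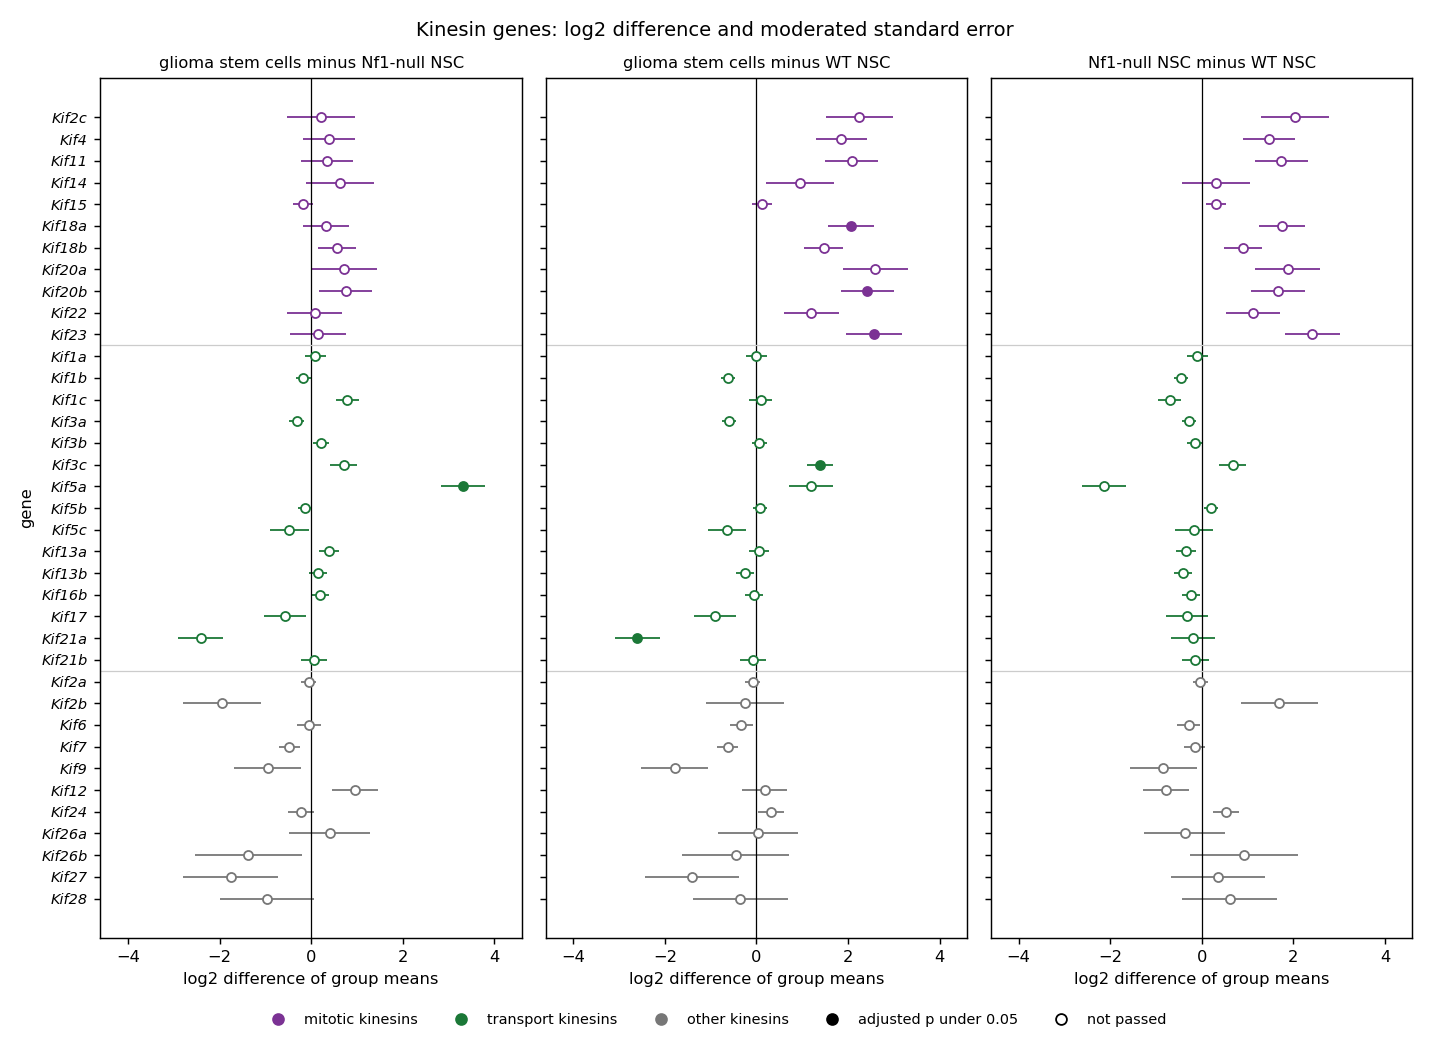
Log2 difference of each of the 37 kinesin genes by class, with bars of 1 moderated standard error to each side (limma), in GSC over Nf1-null NSC, GSC over WT NSC and Nf1-null NSC over WT NSC, with filled points for an adjusted p under 0.05, open points for the rest and a line at 0. The mitotic genes lie to the right of 0 over WT NSC in both mutant groups, and the transport genes spread to both sides, with Kif5a at 3.32 and Kif21a at -2.41 in GSC over Nf1-null NSC.

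Cargo adaptors and dynein subunits, the proteins that tie transport motors to their loads or walk the other way, had medians near 0. Of 30 measured, 0 passed in GSC over Nf1-null NSC (limma, median log2 difference 0.02), where 4 had an unadjusted p under 0.05, beside 16.5% of all genes. Over WT NSC 0 rose and 2 of 30 fell (median -0.03), close to the 5.65% of all genes called lower. Those 2 are known as scaffolds that link conventional kinesin to JNK signalling: Mapk8ip1 (-0.67 ± 0.12, adjusted p = 0.0223, limma) and Mapk8ip2 (-1.53 ± 0.38, adjusted p = 0.0477, limma). Mapk8ip2 had signals of 1062, 1066.5 and 635 in GSC, 987, 387.5 and 683 in Nf1-null NSC, against 2876, 2963 and 2019.8 in WT NSC. Both mutant groups were below WT NSC on every array. The third scaffold, Mapk8ip3, had log2 differences of -0.42 ± 0.14 in GSC (adjusted p = 0.0944) and -0.75 ± 0.14 in Nf1-null NSC (adjusted p = 0.0933, limma) over WT NSC. Trak2, which couples Kif5 to mitochondria, had a log2 difference of 0.75 ± 0.19 in GSC over WT NSC (adjusted p = 0.0526, limma) and 0.76 ± 0.19 over Nf1-null NSC (adjusted p = 0.109, limma). Between the NSC groups, 12 of 30 were lower in Nf1-null NSC without overlap, beside 14.1% of all genes. At an unadjusted p under 0.05 there were 10, beside 16.8% of all genes, and 0 passed after adjustment (limma).

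Of the 11 other kinesins, 0 passed by limma in GSC over Nf1-null NSC, in GSC over WT NSC or in Nf1-null NSC over WT NSC. The shares of all genes were 1.82%, 9.11% and 0%. At an unadjusted p under 0.05 there were 0, 2 and 0 in that order, beside 16.5%, 26.4% and 16.8% of all genes. Groups did not overlap for 1 of 11 in each comparison, beside 21.9%, 34.9% and 23.8% of all genes. Their median log2 differences were -0.47, -0.33 and -0.03 in that order. Kif7, which regulates Hedgehog signalling at the tip of the cilium, had signals of 1553, 1036 and 884 in GSC, 1716, 1456 and 1526 in Nf1-null NSC, against 1972, 1765 and 1509 in WT NSC. GSC arrays 2 and 3 were below every NSC array and array 1 was among them, with a log2 difference over WT NSC of -0.63 ± 0.23 (adjusted p = 0.134, limma). Kif9, a motor of motile cilia, had signals of 27.1, 136 and 119 in GSC, 229.6, 59.9 and 233.5 in Nf1-null NSC, against 212, 342 and 257 in WT NSC. All its GSC signals were below all WT NSC signals (-1.78 ± 0.73, adjusted p = 0.172, limma), with a wide standard error. Kif2a, a microtubule depolymerase of spindles and of developing axons, lay between 4939.6 to 6692 on all arrays, and its log2 difference in GSC over WT NSC had a 95% interval of -0.48 to 0.31. Kif24, which acts on the mother centriole to hold back cilia, overlapped in all comparisons at 391 to 793. The remaining 7, Kif2b, Kif6, Kif12, Kif26a, Kif26b, Kif27 and Kif28, did not exceed 311 on any array. Of all 37 kinesins, 14 were below the median brightness of genes and 5 among the dimmest 25%, where a missed threshold says little about the level.

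Unused probe sets offer a check on the choice of the brightest. The 37 genes had 99 probe sets, and 25 genes had several. Of 24 mitotic probe sets, 23 were higher in GSC than in WT NSC, 19 of them without overlap, and 1, a dim set of Kif2c, was lower without overlap. In Nf1-null NSC over WT NSC, 22 of 24 were higher and 9 of them did not overlap. By the brightest probe set of each gene, 13.9% of all genes were higher and 21% lower without overlap in GSC over WT NSC. In Nf1-null NSC over WT NSC 9.74% were higher without overlap. Shares over all probe sets were not computed. Of 56 transport probe sets, 28 were higher and 28 lower in GSC than in WT NSC, and 20 of 56 were higher in Nf1-null NSC than in WT NSC. Probe sets of a gene share its RNA and are not replicates.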

How the data were processed

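Each of the 9 samples gave 100 ng of total RNA for 1 Affymetrix Mouse Genome 430 2.0 array, per the labels' protocols. The values are linear intensity values of 45101 probe sets as deposited by the authors, with software not given in the sources used here. The mean signal of each array without the lowest and highest 2% was 1500, and medians lay between 264.7 and 287.4, so a difference in total RNA between samples would be scaled away. The number of arrays, 3 a group, limits the precision. All 9 table columns matched a sample title, and 0 columns stayed unmapped.

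Probe sets with exactly 1 symbol in the platform annotation (34945) gave 18193 genes, with 932 probe sets of several symbols, 9160 of none and 64 controls left out. All 37 kinesins matched the RefSeq gene table (GRCm38.p6), and 0 symbols changed. Log2(value + 1), whose pseudocount shrinks the changes of dim genes, was fitted with 3 group means over the 9 arrays in R 4.3.3 (limma 3.58.1, moderated by eBayes with no brightness trend), 6 residual and 1.62 prior degrees of freedom. Tests were two-sided with Benjamini-Hochberg adjustment over all genes. Figures and promoter searches used Python 3.11.15, pandas 2.3.3 and matplotlib 3.10.9.

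Members, classes and the 13 gene lists, with 161 of 169 genes measured, were chosen with earlier results of these data known. The text names every member, the kinesins outside the pattern, Nf1, Mki67, Top2a and up to 4 partners or adaptors of smallest p in a comparison, with full values for members past the threshold and for up to 6 of smallest p per class. Beyond that rule, Ckap5, Stmn2, Sox2 and the neuron markers were named after their values were seen.

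Whether equal array numbers pair the samples was checked by correlating deviations from group means over the 9097 brighter genes. The values were 0.64, 0.24 and 0.58 between the NSC groups, 0.30, 0.12 and 0.11 between GSC and Nf1-null NSC, and 0.24, 0.05 and 0.20 between GSC and WT NSC. The first 2 sets exceed 0.1 throughout, the second only narrowly, and this pairing comes from the data, since the labels do not state it. The block entered only as an alternative fit. Simulated arrays of GSC over WT NSC held 18193 genes, and the changed genes were all drawn from the 9097 brighter ones. The model recovered 44% of those changed by 1 on the log2 scale, 92% by 2, 94% by 3 and 98% by 4, with 13 false among 177 calls. These shares do not cover the 14 kinesins below the median brightness. They also average over genes with narrow and wide spread between arrays. Results were recomputed under 23 other settings (probe set choice, filters, scaling, variance prior, block and each array left out), 2 of them added after the data were seen.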

Additional observations from a re-analysis of the deposited data

How the results depend on the processing

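Over the 23 alternatives, 57 named kinesin differences gave 1243 values, of which 1109 kept direction and side of the threshold, 55 lost a call, 63 gained one and 16 changed sign. The sign changes all belong to differences that did not pass, and the cause was not tested. In GSC over Nf1-null NSC they were Kif18a at -0.10, Kif23 at -0.36 and Kif3a at 0.14 with the second brightest probe set. Leaving out 1 array, Kif14 ranged from -0.029 (without Nf1-null NSC replicate 2) to 1.17, Kif23 from -0.081 (without Nf1-null NSC replicate 3; -0.02 without glioma stem cells replicate 1) to 0.36, and Kif26b from -2.15 to 0.16 (without glioma stem cells replicate 1). Over WT NSC they were Kif1b at 0.18 with the mean of all probe sets, Kif3a at 0.013, Kif2a at 0.040 and Kif24 at -0.058 with the second brightest, and Kif2a ranged from -0.17 to 0.024 (without WT NSC replicate 2) on leaving out 1 array. In Nf1-null NSC over WT NSC the second brightest probe set gave Kif20b -0.14, Kif5a 0.56, Kif13b 0.23 and Kif24 -0.30.

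Mitotic calls in GSC over WT NSC, 3 in the report, numbered 8 with the brightness trend, with robust moderation, with brighter genes only and with the replicate block, 7 without the dimmest 25% of genes, 1 with the second brightest probe set, 0 with 6 arrays and 0 with an ordinary linear model. Both added fits of the brighter genes gave 8, and leaving out 1 array gave 0 to 8. Their median ranged from 1.52 to 2.60 on leaving out 1 array. In Nf1-null NSC over WT NSC the count of 0 became 1 with robust moderation, 1 with brighter genes, 1 with brighter genes and trend and 7 with brighter genes and replicate block, while the replicate block alone left 0. These settings differ in genes tested, spread or arrays by construction, and calls over all genes are given below for only some of them.

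Transport calls in GSC over Nf1-null NSC, 1 in the report, became 2 with the trend, with robust moderation, with a pseudocount of 16 and without the dimmest 25% of genes, and 0 with the mean of probe sets, the second brightest, 6 arrays, the replicate block and the ordinary model, and 0 to 2 on leaving out 1 array. Over WT NSC the 2 calls became 4 with the trend, robust moderation, brighter genes, without the dimmest 25%, the ordinary model and both added fits, 1 with the mean of probe sets, 0 with 6 arrays and 0 to 3 on leaving out 1 array. In Nf1-null NSC over WT NSC robust moderation gave 1. The transport median with the mean of probe sets was 0.21 over Nf1-null NSC and 0.18 over WT NSC in GSC, and with the second brightest 0.057 in Nf1-null NSC over WT NSC, where leaving out 1 array gave -0.37 to -0.20. Other kinesins had 1 call over WT NSC with the replicate block and 1 with brighter genes and block. Leaving out 1 array gave 0 to 1 calls in both glioma comparisons (1 without Nf1-null NSC replicate 2 and 1 without glioma stem cells replicate 1). The replicate block changed no class count other than those given here. The median of other kinesins was -0.94 over Nf1-null NSC with the second brightest probe set, and -0.52 to -0.14, -0.62 to -0.10 and -0.16 to 0.43 on leaving out 1 array in the 3 comparisons.

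Calls over all genes moved likewise. The 331 in GSC over Nf1-null NSC became 763 with the trend, 801 with robust moderation, 611 with brighter genes, 543 with the dimmest 25% left out, 149 with the mean of probe sets, 89 with the second brightest, 46 with 6 arrays, 213 with the replicate block, 149 with the ordinary model, 938 with brighter genes and replicate block and 630 with brighter genes and trend, and 82 to 734 on leaving out 1 array. The 1658 in GSC over WT NSC became 2700 with the trend, 2785 with robust moderation, 2498 with the dimmest 25% left out, 1083 with the mean of probe sets, 902 with the second brightest, 1078 with 6 arrays, 3012 with brighter genes and replicate block and 2530 with brighter genes and trend, and 239 to 1774 on leaving out 1 array. The 0 in Nf1-null NSC over WT NSC became 327 with the trend, 373 with robust moderation, 399 with brighter genes, 137 with the dimmest 25% left out, 1083 with brighter genes and replicate block and 519 with brighter genes and trend, and 0 to 3 on leaving out 1 array.

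With 3 arrays a group, dim kinesins are limited by the noise of the signal, and 300-base windows leave distant elements unseen. Scaling choices moved the median of all genes by under 0.1 on the log2 scale.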
